A study of Mus musculus with 2 samples.

Results

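Transcripts of 10 genes of AP-1 and immediate early transcription factors and regulators were examined in TUBO cells, a mouse mammary cancer line derived from a single tumour of a mouse that carried the rat Her2/neu transgene. The genes are Fos, Fosb, Fosl1 and Fosl2 (the Fos family), Jun, Junb and Jund (the Jun family), Egr1, Ier2 and Ier3. They were chosen by name, and all 10 were found among the 31017 genes of the count table. The cells were untreated, grew as flat cultures on plastic in DMEM/F12 medium with 10% fetal bovine serum, penicillin-streptomycin and glutamine, and gave 2 libraries of a stranded mRNA kit. Both libraries belong to 1 group that shares this medium, so levels are described and no condition is compared with another.

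AP-1 is a dimer of basic leucine zipper proteins. Jun proteins pair with each other or with Fos proteins, whereas Fos proteins need a Jun partner to bind DNA. Most of these genes are immediate early genes: growth factors and serum switch them on through MAP kinases and serum response factor without new protein synthesis, and their mRNAs are often short-lived. In mammary epithelium and its tumours they lie downstream of receptor kinases such as ErbB2.

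The libraries held 35453278 counts in replicate 1 and 34098259 in replicate 2. Levels are CPM (counts divided by the scaled library total, times 1e6), scaled with factors of 1.005 and 0.995 and given as mean ± SD (n = 2). A count of 0 allows up to 0.0842 and 0.0885 CPM, the level of 3 counts, which covers counting error only. All 5 epithelial marker genes, Epcam, Cdh1, Krt7, Krt8 and Krt18, were above 100 CPM. None of 11 markers of leukocytes, endothelium, fibroblasts or myoepithelium reached 1 CPM in both libraries, and 6 of them, among them the leukocyte gene Ptprc and the fibroblast gene Dcn, had no count. The summed level of these 11 genes was 1.91 and 1.47 CPM.

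Every one of the 10 genes was detected, meaning at 1 CPM or more in both libraries, against 37.7% of all genes in the table. At 100 CPM or more in both libraries were Ier3 and Junb, 2 of 10, against 7.46% of all genes. Their median log2(CPM + 1) was 5.77 ± 0.04, compared with 0.12 over all genes and 5.18 over detected genes.

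The upstream sequences of Fos, Jun and Ier3 are shown because they are the founding Fos and Jun genes and the most abundant of the 10. Each runs over the 250 bases before the transcription start in RefSeq (GRCm38.p6), 5′ to 3′ on the gene's strand. Capitals mark the TATA box TATAAA, the GC box GGGCGG on either strand, the sequence TGACGT in Fos and the sequence TGACATCA in Jun.
Fos, chr12:85473640-85473889, plus strand: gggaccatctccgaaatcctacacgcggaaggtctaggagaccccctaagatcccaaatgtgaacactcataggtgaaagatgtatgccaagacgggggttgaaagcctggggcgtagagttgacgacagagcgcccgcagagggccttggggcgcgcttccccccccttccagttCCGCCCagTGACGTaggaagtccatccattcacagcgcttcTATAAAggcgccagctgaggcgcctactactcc
Jun, chr4:95052223-95052472, minus strand: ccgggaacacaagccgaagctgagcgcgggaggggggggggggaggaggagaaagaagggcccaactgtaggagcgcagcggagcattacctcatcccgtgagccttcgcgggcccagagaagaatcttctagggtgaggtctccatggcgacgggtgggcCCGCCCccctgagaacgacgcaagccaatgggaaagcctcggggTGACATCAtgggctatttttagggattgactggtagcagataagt
Ier3, chr17:35821463-35821712, plus strand: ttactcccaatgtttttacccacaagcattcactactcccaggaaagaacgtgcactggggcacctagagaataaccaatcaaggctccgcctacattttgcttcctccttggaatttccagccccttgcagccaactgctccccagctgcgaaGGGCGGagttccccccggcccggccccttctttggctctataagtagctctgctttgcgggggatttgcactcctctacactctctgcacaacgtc
In GENCODE the first base of Ier3 lies 29 bases before the RefSeq start, so the last 29 bases of its window are transcribed in that annotation.

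The Jun family held most of the AP-1 transcripts, and Junb led it. Junb, whose protein can act as a weaker activator than Jun or as an antagonist of it, had 5971 counts in replicate 1 and 5544 in replicate 2, or 167.5 and 163.5 CPM. Jund, the member known for steady expression in resting cells, had 1598 and 1466 counts, or 44.8 and 43.2 CPM. Jun itself, the partner that gives the strongest activation and binds its own promoter, had 1297 and 1119 counts, or 36.4 and 33.0 CPM. Replicate 1 gave the higher level of all 3 genes, and the ranges of the 3 did not overlap.

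Levels of different genes are compared after division by gene length, here the union of annotated exons in kilobases (CPM per kb). On this scale Junb stood at 71.9 ± 1.24, Jund at 26.4 ± 0.681 and Jun at 10.9 ± 0.752 CPM per kb. Junb was 2.73 ± 0.0232 times as high as Jund and 6.62 ± 0.344 times as high as Jun, and Jund was 2.43 ± 0.105 times as high as Jun. Each of these ratios exceeded 1 by far more than its spread over the libraries.

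All 4 genes of the Fos family were below Jun per length, and Fosl2 led them. Fosl2, which encodes the Fos-related antigen Fra-2, a protein without the strong C-terminal activation domain of Fos, had 2372 and 2146 counts, or 66.5 and 63.3 CPM. Fos, the founding member, had 361 and 365 counts, or 10.1 and 10.8 CPM. Fosl1, which encodes Fra-1, had 86 counts in each library, or 2.41 and 2.54 CPM. Fosb, which can yield a full-length and a truncated protein, had 76 and 73 counts, or 2.13 and 2.15 CPM.

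Replicate 1 was higher for Fosl2, and replicate 2 was higher for the other genes of the family. Per length, Fosl2 reached 6.71 ± 0.239, Fos 4.44 ± 0.191, Fosl1 1.22 ± 0.0428 and Fosb 0.343 ± 0.00230 CPM per kb. Fosl2 was 1.51 ± 0.119 times as high as Fos, 5.52 ± 0.390 times as high as Fosl1 and 19.5 ± 0.827 times as high as Fosb. In CPM without length, Fosl2 was 6.21 times as high as Fos, and its annotated exons cover 9680 bases against 2352 for Fos.

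Egr1, a zinc finger factor that binds GC-rich sites and is induced by the same signals as Fos, had 2925 and 2672 counts, or 82.1 and 78.8 CPM. Its length-divided level of 17.9 ± 0.516 CPM per kb was 4.04 ± 0.290 times that of Fos. Ier2, which encodes a small nuclear protein of growth factor responses, had 2799 and 2669 counts, or 78.5 and 78.7 CPM. Ier3, which encodes an early response protein linked to survival and ERK signalling, had 11570 and 10973 counts, or 324.6 and 323.5 CPM.

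Among the Ier genes the libraries were nearly identical, with SDs of 0.121 CPM for Ier2 and 0.742 CPM for Ier3. Ier3 stood at 286.5 ± 0.656 CPM per kb, above 99.4% of detected genes with a length. It was 5.55 ± 0.0213 times as high as Ier2, which stood at 51.6 ± 0.0796 CPM per kb.

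**Figure D1:**
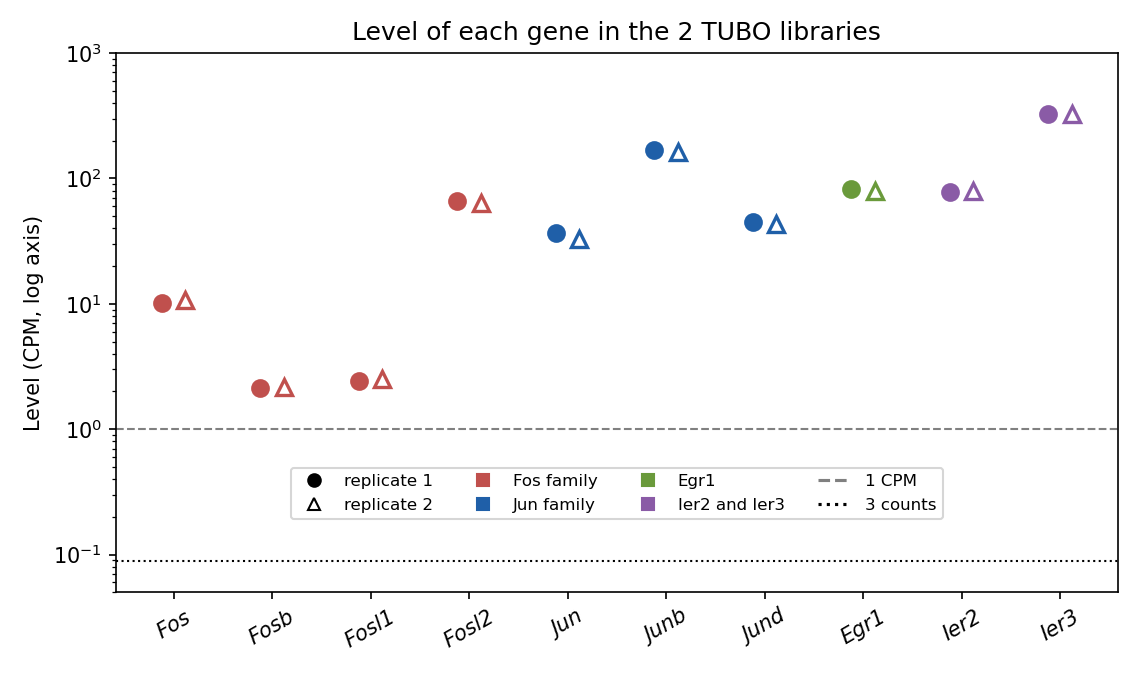
Level of each gene in CPM on a log axis, with replicate 1 as filled circles and replicate 2 as open triangles. The dashed line marks 1 CPM and the dotted line 3 counts in the smaller library. Points of the same gene lie close together, from Fosb at 2.13 and 2.15 CPM to Ier3 at 324.6 and 323.5 CPM.

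The order per length was Ier3, Junb, Ier2, Jund, Egr1, Jun, Fosl2, Fos, Fosl1 and Fosb. None of the 9 pairs of neighbours in this order had overlapping values between the 2 libraries. With the union of exons the ratios of neighbours ran from 1.39 ± 0.0262 for Junb over Ier2 to 3.98 ± 0.0598 for Ier3 over Junb. With the longest transcript they ran from 1.10 for Jun over Fosl2 to 3.73 for Fos over Fosl1. From end to end, Ier3 was 835.03 ± 7.50 times as high as Fosb, but 505.8 times with the longest transcript, 485.4 times with the median transcript and 151.3 times without length division. Among detected genes with a length, Junb lay above 95.9%, Egr1 above 76.6%, Jun above 61.7%, Fos above 34.2% and Fosb above 2.13%.

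The order and the sizes of the ratios rest on the lengths used. With the longest annotated transcript all 9 neighbouring pairs kept their order. With the median transcript length Fosl2 (18.7 CPM per kb) and Fos (12.8) passed Jun (10.9), the Junb to Jun ratio became 13.2, Junb to Jund 5.45, Egr1 to Fos 1.67 and Fosl2 to Fosb 31.7. Without length division Egr1 (80.4 CPM) passed Ier2 (78.6) and Jund (44.0), and Fosl2 (64.9) passed Jund and Jun (34.7). The Jund to Jun ratio was then 1.27, Egr1 to Fos 7.70, Fosl2 to Fosl1 26.2 and Fosl2 to Fosb 30.3. Which transcripts of each gene are used in these cells cannot be read from counts per gene.

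**Figure D2:**
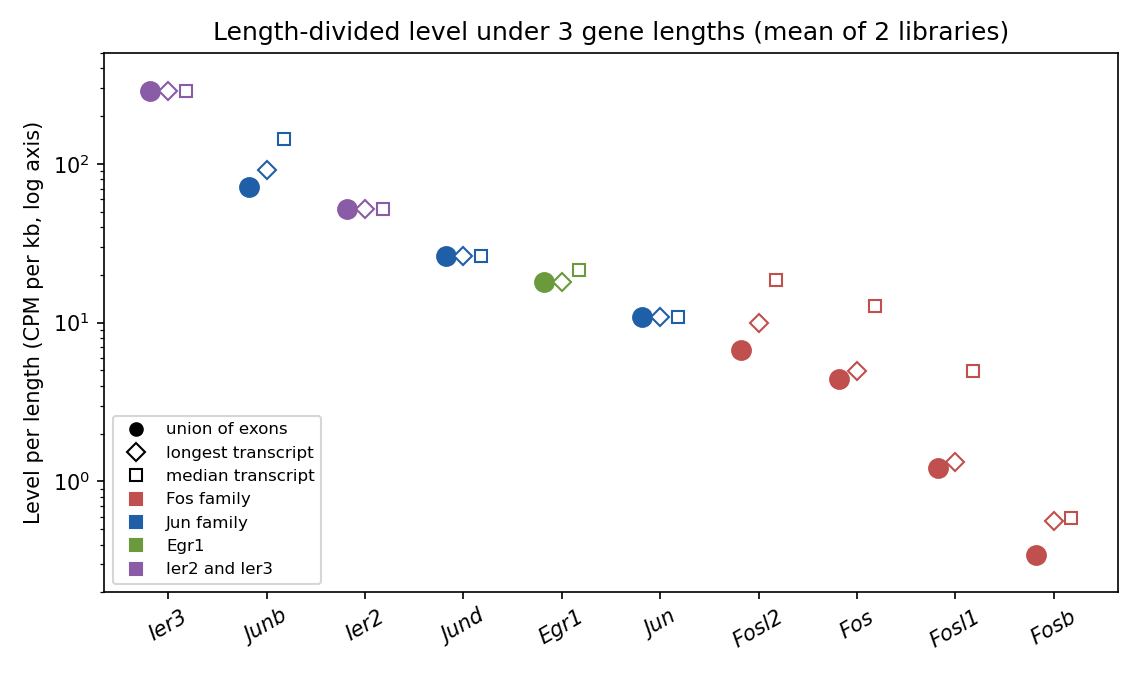
Mean CPM per kb of the 2 libraries on a log axis, with the union of exons as filled circles, the longest transcript as open diamonds and the median transcript as open squares. The 4 Fos family genes are the lowest with the union of exons and the longest transcript, and with the median transcript Fosl2 and Fos rise above Jun.

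Of the summed length-divided level of the 7 AP-1 subunit genes, Junb made up 59.0 ± 0.277%, Jund 21.7 ± 0.0824% and Jun 8.92 ± 0.421%. Fosl2 made up 5.50 ± 0.0750%, Fos 3.65 ± 0.237%, Fosl1 0.999 ± 0.0571% and Fosb 0.282 ± 0.00807%. The Jun family together held 89.6 ± 0.227% and the Fos family 10.4 ± 0.227%, a ratio of 8.59 ± 0.209. Without length division the Jun family held 75.3% and Fosl2 alone 20.0%. These are shares of transcripts, and neither protein nor dimers were measured.

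**Figure D3:**
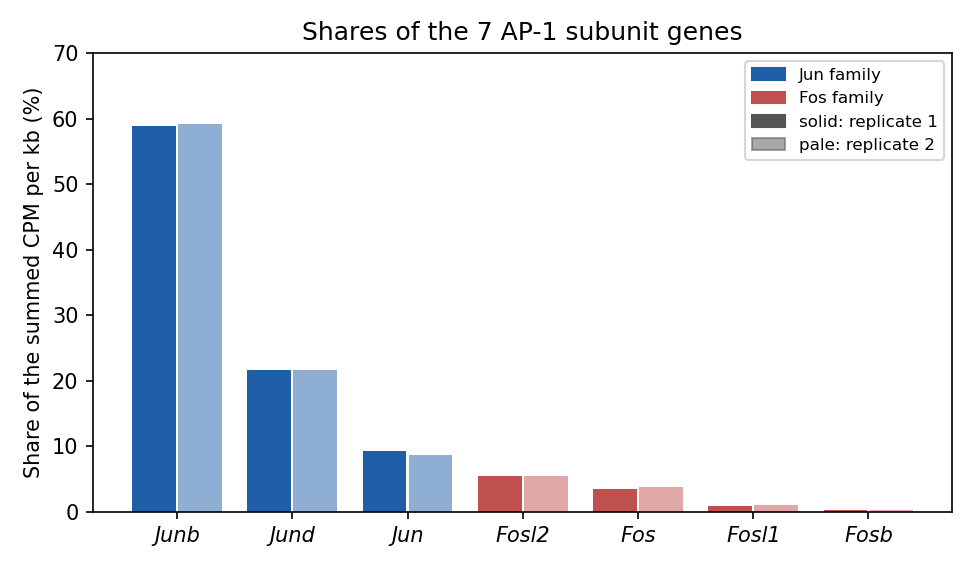
Share of each AP-1 subunit gene in the summed CPM per kb of the 7 genes, with replicate 1 as solid and replicate 2 as pale bars. Junb holds 58.8% and 59.2%, more than the other 6 genes together in both libraries.

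None of the 10 genes was called different between the libraries after adjustment. An exact binomial test was run on each of 13336 genes kept by edgeR's filter, two-sided and with Benjamini-Hochberg adjustment over all of them. It called 0 of the 10 and 8.13% of all tested genes. At that share few or none of 10 genes would be called, so the 0 is no result about these genes. Unadjusted, Jun alone was under 0.05 (exact binomial p = 0.0172, adjusted p = 0.133), with a log2 ratio of replicate 2 to replicate 1 of -0.14 and a 95% exact interval of -0.26 to -0.02. In edgeR's exact test with a common dispersion, 0 of the 10 genes were called, 0 had an unadjusted p under 0.05, and 0.142% of all tested genes were called. That dispersion was estimated from the same 2 libraries that the test then sets against each other, so its count of 0 supports nothing about these genes. Of the 10 genes, 6 were lower and 4 higher in replicate 2, with a median log2 ratio of -0.02 against -0.0017 over all tested genes.

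The width of the interval followed the count of each gene. For Ier3 the ratio of replicate 2 to replicate 1 lay between 0.971 and 1.02, and for Junb between 0.941 and 1.01. Fos, with fewer counts, had an interval of 0.916 to 1.23, Fosl1 of 0.770 to 1.43 and Fosb of 0.722 to 1.41. The test compares these 2 libraries and not conditions. Nothing in the labels tells whether each library came from its own culture, so a difference between them may be technical. The exact binomial p-values weigh that difference against counting error only.

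**Figure D4:**
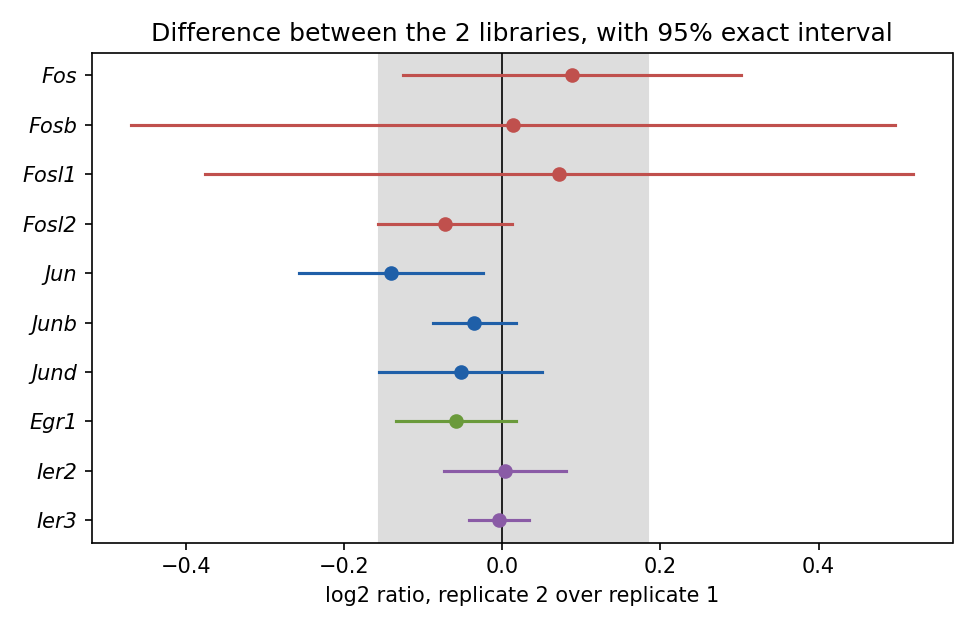
Log2 ratio of replicate 2 to replicate 1 for each gene, as points with 95% exact intervals that cover counting error only. The grey band holds the middle 95% of tested genes with a mean above 10 CPM, from -0.16 to 0.18, and all 10 points lie inside it.

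Most of the 10 genes have few exons and a short span. In GENCODE M21 (GRCm38) their longest coding transcripts have 4 exons or fewer in all 10 genes, against 33.6% of protein-coding genes in the table. Jun, Junb, Jund and Ier2 have a single exon, 4 of 10, against 6.56% of protein-coding genes. Spans run from 1240 bases for Ier3 (chr17:35821684-35822923) to 22042 bases for Fosl2 (chr5:32135801-32157842), and 6 of 10 are under 5000 bases, against 19.1% of protein-coding genes. The span of Fosl2 is longer than that of 56.4% of protein-coding genes. The exons of Fosl2 (9680 bases), Fosb (6243 bases) and Egr1 (4484 bases) are longer than the median of 3495 bases. Fos lies at chr12:85473890-85477273, Fosb at chr7:19302696-19310051 and Fosl1 at chr19:5447547-5455946. Jun lies at chr4:95049034-95052222, Egr1 on chromosome 18, and Junb (chr8:84974484-84978718), Jund (chr8:70698949-70700616) and Ier2 (chr8:84661331-84662852) share chromosome 8.

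None of the 50-base windows of these genes' transcripts was found in a transcript of another gene, so counts are not shared among paralogs at that length. Overlap with genes on the opposite strand is a separate limit, since no source used here states whether reads were counted by strand. Of the Fosl1 exon bases 57.2% lie within exons of Ccdc85b (244 and 247 counts), so the low Fosl1 count is uncertain. Exons of the antisense gene Gm11175, which had no count, cover 52.6% of the Jund exon bases. The Jund count, and the share and ratios that rest on it, carry the same limit. Junb shares 173 exon bases with Prdx2 (7300 and 6987 counts), none of them in its longest coding transcript, and Jun shares 232 with Junos (25 and 20 counts).

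The 3′ untranslated regions (3′ UTRs) of these genes were searched for AU-rich sequence, a known signal for rapid mRNA decay. The heptamer TATTTAT occurred in 7 of 10 genes, against 27.6% of protein-coding genes, and the nonamer TTATTTATT, which contains it, in Fos and Fosl2, 2 of 10 against 7.63%. Ier3 had 4 heptamers in 613 bases, a density above that of 99.5% of genes, Fosl2 had 3 in 4653 bases and Fos 2 in 815 bases. Junb, Egr1 and Ier2 had no heptamer. The most abundant of the 10, Ier3, thus had the highest heptamer density, and Fos, at 4.44 CPM per kb, the next highest. Decay was not measured.

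The first such site of 4 genes is shown with its surroundings, the motif in capitals, from the GENCODE M21 transcripts. They are the genes with the nonamer, the gene with the most heptamers, and Jun with 1.
Fos, bases 644 to 673 of the 3′ UTR: gtgttttcaatTTATTTATTaagatggatt
Fosl2, bases 3681 to 3710: catttattttaTTATTTATTttaaatgttt
Ier3, bases 170 to 199: gtgtctaattaaTATTTATgTATTTATgta
Jun, bases 1159 to 1188: tttgcttgtgcaTATTTATaatagcgttcg

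Upstream sequence was matched for 7 of the 10 genes: Fos, Fosb, Fosl2, Jun, Junb, Jund and Ier3. The GC box GGGCGG, on either strand, was in 5 of 7 windows, those of Fos, Fosb, Fosl2, Jun and Ier3, against 32.7% of all windows of that length. The TATA box TATAAA, on either strand, was in that of Fos, 33 to 28 bases before the start, against 12.4% of all windows. The AP-1 site TGANTCA, the cAMP response element TGACGTCA and the CArG box bound by serum response factor were each searched on both strands. They were in none of the 7 windows, against 6.75%, 1.55% and 1.47% of all windows. Sequence further upstream than the windows was not searched, so this absence does not show that the genes lack such sites. Fosl1, Egr1 and Ier2 had no window to search.

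After the sequences were seen, a pair of related sequences was added. TGACATCA, a variant of the AP-1 site, was found in Jun 45 to 38 bases before the start and is present in 2.93% of all windows. TGACGT, the first part of the cAMP response element and therefore contained in it, was found in Fos 66 to 61 bases before the start and is present in 6.47%. Both are in capitals in the sequences above. The windows of Fosb (68.8% G and C), Junb (66.4%) and Fosl2 (64.4%) were richer in G and C than the median window (52.4%). So were those of Jun (61.2%), Fos (58.4%) and Ier3 (54.4%), while that of Jund was poorer (47.6%). The GC box share was not compared with windows of like G and C content. The RefSeq start of Jund lies 1210 bases upstream of the GENCODE start, so its window may not hold the promoter in use. That of Fosl2 lies 671 bases downstream of the GENCODE start, so its whole window is inside the annotated gene.

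Other genes of the pathway were taken from 7 lists, and most were detected. Of 6 genes of serum response factor and its cofactors all 6 were detected, with Srf at 25.0 and the ETS cofactor Elk4 at 16.0 CPM per kb. Mkl1 and Mkl2, the actin-regulated cofactors, were at 41.1 ± 1.48 and 84.5 ± 3.30 CPM and had no matched length. The lowest in CPM were Elk1 (24.4 ± 0.452 CPM) and Elk3 (17.4 ± 0.997 CPM). Of the 6 genes, all tested, Elk4 was the 1 called between the libraries, against 8.13% of all tested genes, and was higher in replicate 2 (log2 ratio 0.11, exact binomial adjusted p = 0.0255).

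Of 15 MAP kinase and effector kinase genes 14 were detected. Among those highest in CPM were the ERK gene Mapk3 (76.2 CPM per kb), the p38 gene Mapk14 (26.2 CPM per kb) and the RSK gene Rps6ka3 (13.5 CPM per kb). The JNK gene Mapk10, known mainly from neural tissue, had no count, and the effector kinase gene Rps6ka5 was at 6.17 ± 0.156 CPM. Of 14 tested genes Mapk3 was the 1 called, against 8.13% of all tested genes, and was lower in replicate 2 (log2 ratio -0.11, exact binomial adjusted p = 0.00168).

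Of 16 other basic leucine zipper genes, listed as AP-1 partners or related factors, 12 were detected. The highest in CPM were Atf4 (106.1 CPM per kb), the stress-response factor, Mafg (28.7), a small Maf protein, Atf2 (15.6), a partner of Jun, and Creb1 (7.85), the cAMP-responsive factor. The lymphoid and myeloid partners Batf, with no count, and Batf2, with 1 count, were the lowest.

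Of 7 genes related to Egr1, Ier2 and Ier3, 6 were detected. The corepressor genes Nab1 and Nab2, whose proteins bind Egr1, were at 37.5 and 14.8 CPM per kb, and Ier5l and Ier5 at 38.7 and 7.97 CPM per kb. Egr2 was at 4.93 CPM per kb, below Egr1, and Egr4 had no count. All 10 genes of AP-1 turnover and modification were detected, with the pseudokinase gene Trib1 (44.4 CPM per kb), the kinase gene Gsk3b (26.0), the ubiquitin ligase gene Itch (14.9) and the signalosome gene Cops5 (25.1) highest in CPM. The lowest were the deubiquitinase gene Usp28 (9.53 ± 0.193 CPM) and the redox factor gene Apex1 (8.30 ± 1.11 CPM).

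Of 30 other immediate early genes 25 were detected. The highest in CPM were the ERK phosphatase gene Dusp6 (237.9 CPM per kb), the kinase gene Plk2 (64.9), Phlda1 (94.4) and the nuclear receptor gene Nr4a1 (43.6). The phosphatase gene Dusp2 had no count, and the cyclooxygenase gene Ptgs2, Gem and Klf4 were tied above it, each with 1 count in replicate 1 and none in replicate 2. Of 25 tested genes 2 were called, against 8.13% of all tested genes. These were Dusp6 and Btg1, both lower in replicate 2, with log2 ratios of -0.05 and -0.13 (exact binomial adjusted p = 0.00490 and 0.00211).

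Of 15 genes known as AP-1 targets in other systems 9 were detected. The secreted phosphoprotein gene Spp1 (1780 CPM per kb), the cyclin D1 gene Ccnd1 (339.9), the hyaluronan receptor gene Cd44 (65.5) and the growth factor gene Hbegf (13.4) were highest in CPM. Mmp3, Mmp9, Mmp13 and Timp1, genes of matrix proteases and an inhibitor, had no count. Of 9 tested genes 3 were called, all lower in replicate 2, against 4.46% of all tested genes called lower there. Of the 5 epithelial markers 3, Krt7, Cdh1 and Krt8, were also called lower in replicate 2. The called target genes were Spp1, Ccnd1 and Cd44, with log2 ratios of -0.04, -0.06 and -0.08 (exact binomial adjusted p = 3.61e-07, 6.28e-09 and 7.46e-05). These 3 had the most counts of the list, and the exact binomial test calls smaller differences at higher counts. Their ratios lie within the middle 95% of tested genes with a mean above 10 CPM, from -0.16 to 0.18. The 3 calls are therefore no result about AP-1 targets. No binding was measured, so what drives these genes here was not tested.

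The median log2(CPM + 1) of the lists was 3.82 for AP-1 targets and 4.43 for partner and related factors. It was 4.46 for other immediate early genes and 4.76 for genes related to Egr1 and the Ier genes. It was 5.80 for serum response factor and its cofactors, 5.94 for the kinases and 6.27 for turnover genes, against 5.77 for the 10 genes. The lists mix genes of different lengths, so these medians are a description.

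**Figure D5:**
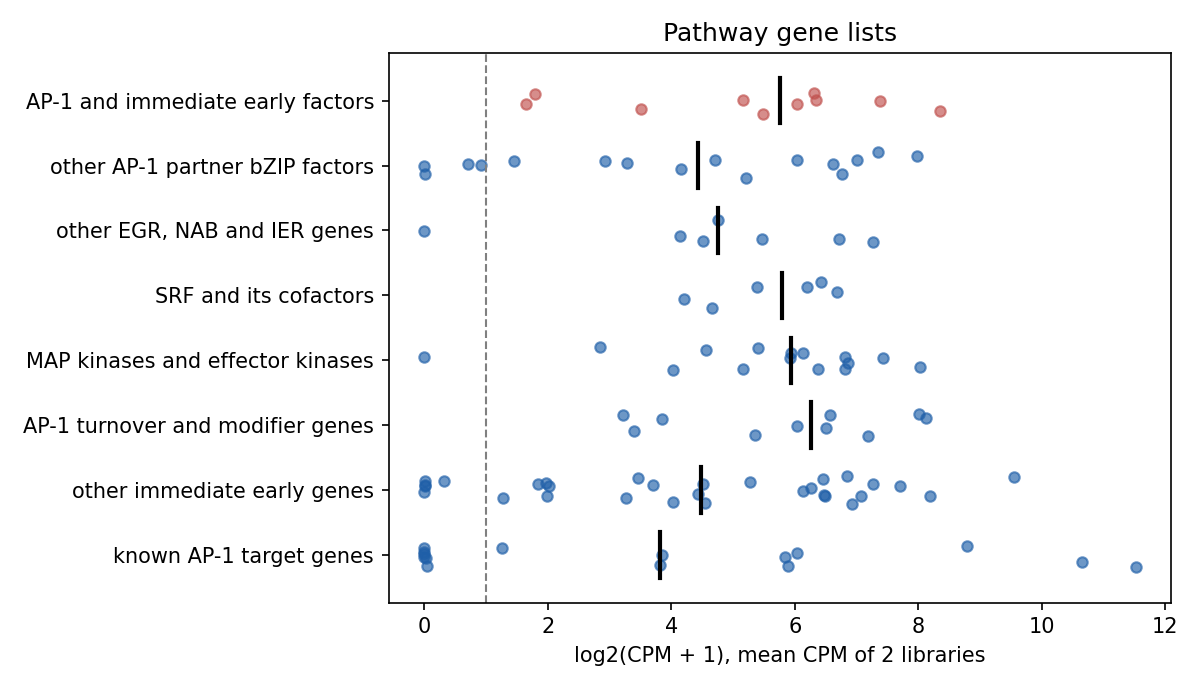
Each point is a gene, at log2(CPM + 1) of its mean level, with 1 row per list and a black bar at the list's median. The dashed line marks 1 CPM, and points at 0 had no count or nearly none. The 10 genes, in red, spread from Fosb and Fosl1 near 2 CPM to Ier3 at 324.07 CPM.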

How the data were processed

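The authors deposited raw counts per gene symbol, and each column was matched to its sample by the replicate number, per the labels. Tools in the submitters' processing notes, whose roles are not stated, are STAR 2.7.9a, featureCounts, Cell Ranger 3.0.0, FastQC 0.11.9 and R 4.1.1, and the build is mm10. The annotation release is not given in the sources used here, nor is the strand setting or the treatment of multiply matching reads.

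CPM values use TMM factors from edgeR 4.0.16 (R 4.3.3). Lengths, exons and 3′ UTRs came from GENCODE M21 (GRCm38), where 98.3% of symbols had a single match, and upstream windows from RefSeq. The 13336 genes kept by filterByExpr hold 99.95% of the counts. Each was tested between the libraries with a two-sided exact binomial test (SciPy 1.17.1) and Benjamini-Hochberg adjustment. The test was also run on simulated libraries that held counting error only, so that run says nothing about spread beyond counting error. With 1 group of 2 libraries no quasi-likelihood test was possible.

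Members and lists were chosen with earlier results of these data known. All 10 genes are named, and of each list the 4 highest and 2 lowest in CPM, with ties at 0 named together, and called genes; some list genes are not reported here. Alternatives were DESeq2 1.42.0 size factors, total counts, upper-quartile factors, other filters, detection minimums, pseudocounts, lengths and each library left out.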

Additional observations from a re-analysis of the deposited data

How the results depend on the processing

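Total counts, DESeq2 size factors and upper-quartile factors moved no level of the 10 genes by as much as the spread between libraries. Leaving the ribosomal RNA-related rows Gm26917 and Gm42418 out of the totals raised all 10 by 11.7%, and their median from 54.5 to 60.8 CPM. With either library left out the median was 53.3 to 55.7 CPM, Junb held 58.8% to 59.2% of the AP-1 sum and the Jun family 89.4% to 89.7%. With the longest transcript these shares were 62.9% and 88.5%, and without length division 51.1% and 75.3%. Of the 10 genes, 5 reached 50 CPM, 1 reached 200 CPM and 8 reached 5 CPM in both libraries. The median over all list genes was 5.37 with a pseudocount of 5 CPM against 5.23 with 1 CPM. With total counts, DESeq2 size factors, upper-quartile factors and the other filters, the exact binomial test called 0 of the 10 genes (of 8 tested at a mean of 10 CPM or more). It was not run with the ribosomal RNA-related rows left out of the totals. The exact binomial adjusted p of Jun ranged from 0.0723 with total counts to 0.175 with all genes that had a count. Genes called over the whole table numbered 1084, of which 45.1% were higher in replicate 2, but 28.9% with total counts, and edgeR's exact test, whose dispersion comes from the same libraries, called 19. With total counts 8 of the 10 genes were lower in replicate 2, against 6. No paired analysis was possible because there is 1 group. The counts of Fosb and Fosl1 limit what could be seen between the libraries.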
